A study of Mus musculus with 18 samples.

Results

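Long intronic MDA5-protected peaks are stretches of liver RNA that map between the annotated exons of a gene, measure at least 500 nt and were recovered after RNase digestion in the presence of MDA5ΔCARD, the double-stranded RNA sensor MDA5 without its signalling domains. They were chosen by a rule that uses the deposited positions: the peak had to be 500 nt or longer, to lie on its own strand within a protein-coding gene of GENCODE M21, and to touch no annotated exon of that strand. The 6 MDA5-protected libraries held 498 such peaks among 11501 peaks of all kinds, and the 18 libraries of the experiment held 82353 peaks in all. Overlapping peaks on 1 strand were merged across libraries, which gave 285 regions in 138 host genes. Because length and place chose the peaks, their lengths and host introns are given as a description. Tests compare how many there were in each library, how often they recurred and how far RNase-only and input peaks covered them. Whether such RNA came from pre-mRNA, from excised introns or from transcripts outside the annotation was not tested.

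Livers of 8 to 9 days old mice were compared between editing-deficient (Adar-/-; Mavs-/-) animals, which lack ADAR1 and MAVS, and Mavs-/- animals, which lack MAVS only and are titled wild-type in the sample labels. Loss of MAVS, the adaptor through which MDA5 signals, was thus shared by all samples, and no mouse with functional MAVS was part of the experiment. For each genotype, 3 replicates of 3 fractions were sequenced: MDA5-protected RNA (digested with RNase A/T1 after incubation with MDA5ΔCARD), RNase-only RNA (digested without the protein) and undigested input. Total RNA of whole liver was heated and refolded before the protein was added, so nuclear and cytoplasmic RNA were mixed and pre-mRNA could take part. The study describes the replicates as biological triplicates, while the labels do not tie a replicate number to an animal.

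MDA5 binds along double-stranded RNA and assembles into filaments, and its signalling through MAVS starts an interferon response. In cellular RNA, double strands arise where a sequence and its inverted copy lie in the same transcript, as with pairs of repeats in introns and 3′ UTRs. ADAR1 converts adenosines of such duplexes to inosine, which disturbs base pairing. Introns hold many repeats, but most of their RNA is spliced out and degraded in the nucleus, whereas MDA5 is a cytoplasmic protein.

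Read counts are not part of the lists. The depth of each peak is therefore unknown and its counting error cannot be given. The MDA5-protected libraries held 1180 to 2868 peaks each, the RNase-only libraries 3150 to 6094 and the input libraries 4326 to 8948. A single RNase-only library, editing-deficient replicate 1, stood apart, with 12.4% of its peaks in introns by the rule above (without the length limit) against 22.0% to 37.3% in the other RNase-only libraries. Among MDA5-protected libraries that share was 52.9% to 54.3% in the editing-deficient libraries and Mavs-/- replicate 1, 39.3% in Mavs-/- replicate 2 and 34.5% in Mavs-/- replicate 3. As a check of the tissue, 32 of 37 hepatocyte genes had an exonic peak in all 6 input libraries. The same held for 6 of 14 macrophage, 4 of 18 erythroid and 2 of 18 endothelial genes. It held for 1 of 13 stellate and fibroblast and 0 of 7 cholangiocyte genes, where a missing peak says only that no exon passed the caller.

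Among the 750 MDA5-protected peaks of at least 500 nt, 498 (66.4%) lay in introns by the rule, 59 (7.87%) touched an exon on their strand and 16 (2.13%) lay on the strand opposite to an intron of a protein-coding gene. The proportions differed in the other fractions: 305 of 1337 long RNase-only peaks (22.8%) and 299 of 10249 long input peaks (2.92%) were intronic. The strands can be read as those of the transcripts, since 90.2% to 93.8% of input peaks touched an exon on their own strand and 0.838% to 1.88% touched exons on the other strand only. None of the 285 regions touched an exon of the opposite strand (0 regions). Opposite-strand peaks overlapped 1 region in the MDA5-protected lists, 4 in the RNase-only lists and 0 in the input lists.

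The peaks measured 610 nt at the median, 543 and 722 nt at the quartiles and 2149 nt at most. After merging, the median was 633 nt and 45 of 285 regions reached 1000 nt. The limit of 500 nt falls within a continuous range of lengths: 31 intronic peaks measured 490 to 499 nt and 33 measured 500 to 509 nt. Just outside lay peaks of 498 nt in Htt, Rtl4 and Zbtb20, and just inside lay peaks of 500 nt in Birc6, Sdc2, Slc22a29 and Slc9a7.

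To ask whether the loss of editing went along with more long intronic peaks, the libraries of both genotypes were compared. Editing-deficient replicates 1, 2 and 3 held 39, 124 and 124 long intronic peaks, and the Mavs-/- replicates held 131, 52 and 28. Mavs-/- replicate 1 thus had the highest number of the 6, and the groups overlapped. The means were 95.7 ± 49.1 and 70.3 ± 53.9 (SD, n = 3), a difference of 25.3 peaks that was smaller than the spread within either genotype (two-sided exact permutation p = 0.70). The smallest p that 3 libraries against 3 allow is 0.10. Adjusted over the 7 tests made, p was 0.70. Single libraries moved the difference widely: it was 4.17 without Mavs-/- replicate 3, 16.2 without Mavs-/- replicate 2 and 55.7 without Mavs-/- replicate 1, and 53.7 without editing-deficient replicate 1 and 11.2 without replicate 2 or 3 of that genotype.

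The number of long peaks depends on how many peaks a library has, so their share among intronic peaks of any length was compared as well. It was 4.49%, 8.25% and 8.18% in the editing-deficient libraries and 13.5%, 10.9% and 6.88% in the Mavs-/- libraries. The mean was 6.97% ± 2.15 against 10.4% ± 3.33 (SD, n = 3), and the difference of -3.44 percentage points was not beyond the spread between libraries (exact permutation p = 0.30, adjusted p = 0.35). Its direction changed with the selection of peaks: with the 1180 peaks of largest area taken from each library, the difference was 1.87 points in favour of the editing-deficient libraries. An area along a peak grows with its length. The cut removed most peaks from editing-deficient replicates 2 and 3 and none from Mavs-/- replicate 3. It therefore cannot separate the number of peaks from their selection by area. With single libraries left out it ranged from -5.21 points (without Mavs-/- replicate 3) to -1.90 points (without Mavs-/- replicate 1), and it was -2.20 points without editing-deficient replicate 1.

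**Figure D1:**
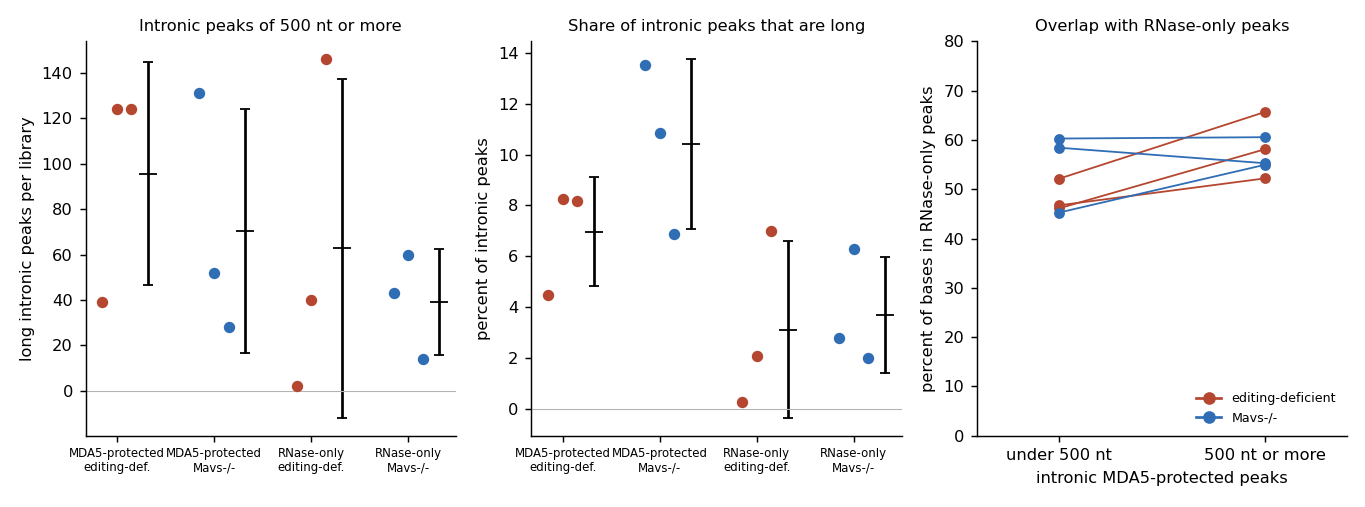
Number of intronic peaks of at least 500 nt per library (left), their percentage among all intronic peaks of the library (middle), and the percentage of bases of shorter and long intronic MDA5-protected peaks that RNase-only peaks of the same genotype cover (right). Points are libraries, black bars are mean and SD of 3 libraries and lines join the values of 1 library; the genotypes overlap in number, and the share of long peaks is 4.49% to 13.5% in MDA5-protected against 0.277% to 6.99% in RNase-only libraries.

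The same rule applied to the RNase-only libraries asks whether long intronic peaks belong to the fraction with MDA5ΔCARD. The RNase-only libraries held 2, 40 and 146 long intronic peaks in editing-deficient replicates 1, 2 and 3, and 43, 60 and 14 in the Mavs-/- replicates. Their share among intronic peaks was 0.277%, 2.09% and 6.99% in the editing-deficient and 2.78%, 6.28% and 2.02% in the Mavs-/- libraries. MDA5-protected libraries thus had a share of long peaks that was 5.29 percentage points higher (two-sided exact permutation test within genotypes, p = 0.015, smallest possible p = 0.005). After adjustment over 7 tests p was 0.073, which misses the threshold of 0.05. The ranges of the fractions overlapped, and the RNase-only lists held more peaks. Each library was then cut to the smallest number in its own fraction, 1180 MDA5-protected or 3150 RNase-only peaks of largest area. The difference was then 8.59 points (exact permutation p = 0.035), but the fractions still differed in number of peaks. With all peaks kept but without the RNase-only library that stood apart, it was 4.58 points (exact permutation p = 0.035).

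Most regions were nevertheless touched by RNase-only peaks. In 245 of 285 regions (86.0%) a base was covered in at least 1 RNase-only library, in 48 regions RNase-only peaks covered over 90% of the length, and in 40 regions they covered none. These counts were not made for shorter merged regions. Because a wider region is touched more easily, nothing particular to long regions is read from them. The median region had 59.3% of its bases in RNase-only peaks of any library. By library, 195, 202, 177, 167 and 96 regions were touched in editing-deficient replicates 2 and 3 and Mavs-/- replicates 1, 2 and 3, and 19 in editing-deficient replicate 1, the library that stood apart.

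Long peaks were then set against the shorter intronic peaks of the same library. RNase-only peaks of the same genotype covered 65.7%, 52.2% and 58.1% of the bases of long peaks in editing-deficient replicates 1, 2 and 3, and 52.2%, 46.8% and 46.1% of those of shorter peaks. In the Mavs-/- replicates the values were 55.0%, 60.6% and 55.3% for long and 45.3%, 60.3% and 58.4% for shorter peaks. Coverage was higher for long peaks in 5 of 6 libraries, by 6.30 ± 6.67 percentage points (mean and SD of 6 differences), and the difference did not pass the test (two-sided exact permutation of signs, p = 0.094, adjusted p = 0.16, smallest possible p = 0.031). Other settings moved it both ways. With a limit of 400 nt the difference was 6.73 points and passed without adjustment (exact permutation of signs, p = 0.031), and counted as the share of peaks that overlap it was 25.9 points (exact permutation of signs, p = 0.031), although a longer peak overlaps more readily. When peaks with an area under 1000 were left out the direction turned, at -3.28 points (exact permutation of signs, p = 0.25).

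Input peaks hardly covered the long peaks. In 5 of 6 MDA5-protected libraries 0 bases of long intronic peaks lay in input peaks of the same genotype, and in editing-deficient replicate 3 the share was 0.425%, while for shorter intronic peaks it was 0.242% to 3.03%. Long peaks were less covered in 6 of 6 libraries, with a difference of -1.42 ± 1.26 points (mean and SD of 6 differences; exact permutation of signs, p = 0.031, the smallest this test allows, adjusted p = 0.073). The input served as the control in calling the digested libraries, so a stretch with much input signal was less likely to be called. Only 2 of 285 regions held an input base, both in Cyp2b9, a cytochrome P450 gene.

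Recurrence was examined next. A long peak was needed in 1 library only for a region to be included, and 178 of 285 regions had their long peak in exactly 1 library, 53 in 2, 29 in 3, 18 in 4, 5 in 5 and 2 in 6. When peaks of any length were counted, 53 regions (18.6%) were covered in all 6 MDA5-protected libraries, 52 in 5, 44 in 4, 52 in 3, 43 in 2 and 41 in 1. All merged intronic MDA5-protected regions of any length numbered 2446, of which 5.19% were covered in 6 libraries and 48.0% in 1. A wider region is touched more easily, so these shares are given side by side without a test. The 41 regions of a single library came from Mavs-/- replicate 1 (19), editing-deficient replicate 2 (13) and editing-deficient replicate 3 (9).

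Coverage of the long peaks of 1 library by peaks of another ranged from 25.2% to 79.5% of their bases over the 30 ordered pairs. It averaged 50.8% between libraries of the same genotype and 48.3% between genotypes, a difference of 2.48 points (exact permutation p = 0.30, adjusted p = 0.35). The highest value lay between genotypes: editing-deficient replicate 2 covered 79.5% of the long peaks of Mavs-/- replicate 3. Without editing-deficient replicate 1 the direction turned, at -0.32 points, and the other left-out libraries gave 0.21 to 6.87 points. Counted as the share of peaks that overlap, the difference was 4.15 points (exact permutation p = 0.10, the smallest possible). It was 17.6 points when peaks over RNase-only peaks replicated in their own genotype were removed (exact permutation p = 0.10). That removal differed between the genotypes and can by itself lower coverage between them, so no genotype pattern is read from it.

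Both regions with a long peak in all 6 MDA5-protected libraries were also the longest of all. The longest lay in Sdc2, which encodes syndecan-2, a heparan sulfate proteoglycan of the cell surface. It spanned 2845 nt at chr15:32953415-32956259 of GRCm38 on the plus strand, in intron 1 of 4, which is 95796 nt long. Peaks covered 2154, 2335 and 1954 nt of it in editing-deficient replicates 1, 2 and 3, and 1930, 2318 and 1717 nt in the Mavs-/- replicates. RNase-only peaks covered 0, 109 and 410 nt in the editing-deficient and 202, 0 and 0 nt in the Mavs-/- libraries. Coverage in all 6 MDA5-protected libraries was thus above that in all 6 RNase-only libraries. The region was chosen by its MDA5-protected peaks, so this order is a description and not a test. The genotypes overlapped.

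The other lay in F8, the gene of coagulation factor VIII. It spanned 2263 nt at chrX:75349140-75351402 on the minus strand, in intron 4 of 25. MDA5-protected peaks covered 1879, 2063 and 2149 nt in the editing-deficient libraries and 1980, 1704 and 1581 nt in the Mavs-/- libraries. Here RNase-only peaks were long as well, with 1850 and 1562 nt in editing-deficient replicates 2 and 3 and 1386, 1376 and 1051 nt in the Mavs-/- libraries, and 0 nt only in editing-deficient replicate 1. Peaks were thus called over much of the F8 region with and without MDA5ΔCARD, whereas RNase-only peaks covered little of the Sdc2 region.

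The next longest regions belonged to Tspan12, which encodes a tetraspanin, with 1995 and 1934 nt in intron 5 of 8, and to Ube2e2, which encodes a ubiquitin-conjugating enzyme, with 1866 nt in intron 3 of 5. In the 1995 nt region of Tspan12, peaks covered 984, 1344 and 1995 nt in the editing-deficient libraries and 835, 266 and 0 nt in the Mavs-/- libraries. In the neighbouring 1934 nt region the values were 262, 1261 and 1934 nt against 916, 0 and 0 nt, so that the groups overlapped in this region but not in the first. In the Ube2e2 region Mavs-/- replicates covered more, 1794, 1558 and 1369 nt against 926, 1406 and 1181 nt, with an overlap of the groups. RNase-only peaks covered up to 1952 nt of the longer Tspan12 region and up to 1801 nt of the Ube2e2 region.

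Other regions among the 10 longest that were covered in all 6 libraries lay in Dpyd (1833 and 1370 nt), again in Sdc2 (1571 nt), and in Zeb1 (1411 nt) and Htt (1351 nt). Dpyd encodes dihydropyrimidine dehydrogenase, the enzyme that starts the breakdown of uracil and thymine. Zeb1 encodes a zinc finger repressor of transcription and Htt huntingtin. The Dpyd region of 1370 nt was covered by 430, 1230 and 1370 nt in the editing-deficient and 1116, 613 and 648 nt in the Mavs-/- libraries. Htt was more even, with 1144, 1119 and 1182 nt against 1164, 744 and 905 nt. The Dpyd region showed how differently replicates of 1 genotype could cover the same region, since its highest and lowest value both came from editing-deficient libraries.

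**Figure D2:**
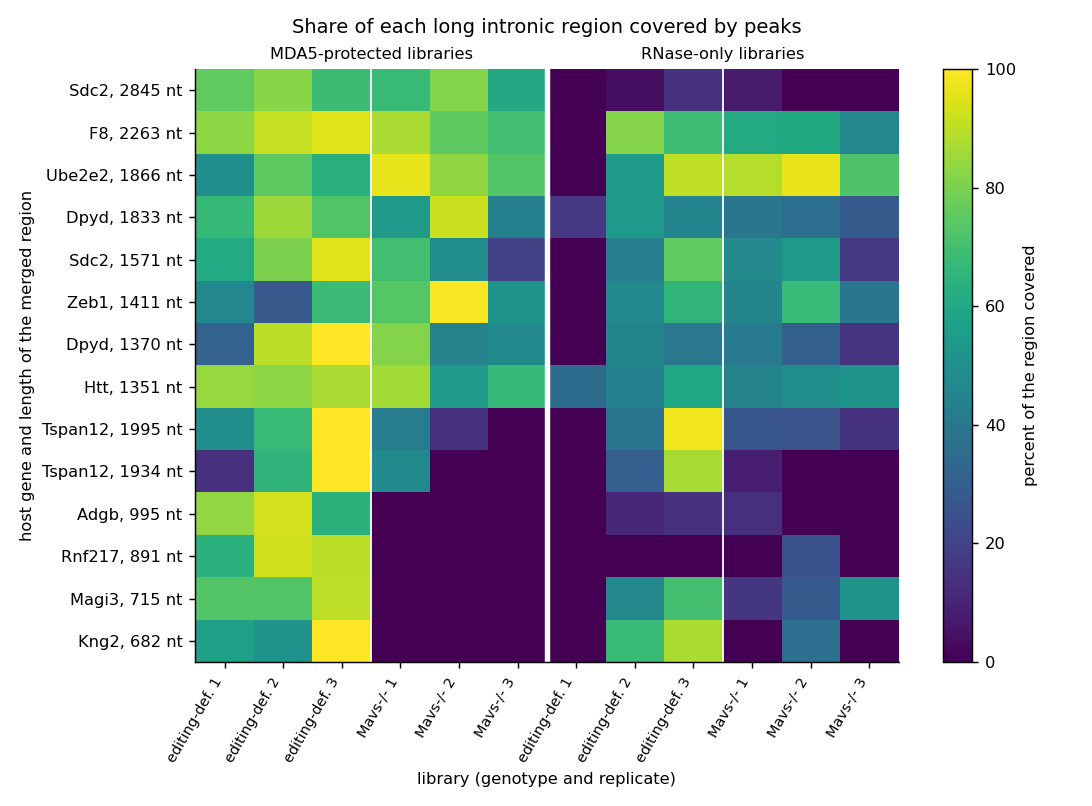
Percentage of each merged region that peaks cover, for 8 of the 10 longest regions covered in all 6 MDA5-protected libraries, the other 2 of the 5 longest regions (Tspan12) and 4 of the 5 longest regions seen only in the editing-deficient MDA5-protected libraries (bottom 4 rows). Columns are libraries, MDA5-protected on the left and RNase-only on the right; the Sdc2 region of 2845 nt is bright on the left and dark on the right, whereas F8 and Ube2e2 are bright on both sides except in RNase-only editing-deficient replicate 1.

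Genotype was then compared region by region. A peak in 3 of 3 editing-deficient and 0 of 3 Mavs-/- libraries was found in 13 of 285 regions (4.56%), beside 3.88% of all 2446 merged intronic regions (95 regions). The opposite, 0 of 3 and 3 of 3, was found in 0 of 285 regions, beside 0.123% of all (3 regions). The number of covered bases was higher in every editing-deficient library than in every Mavs-/- library in 24 regions (8.42%), beside 5.11% of all, and lower in 1 region (0.351%), beside 0.45% of all. A wider region has more bases in which libraries can differ, so nothing particular to long regions is read from these shares. Editing-deficient replicates 2 and 3 held the most peaks of all 6 libraries, and the counts were therefore repeated after each library had been reduced to the same number of peaks. This gave 10 regions with peaks in editing-deficient libraries alone (3.51%, beside 1.55% of all), 17 regions with more covered bases in each of them (5.96%, beside 2.13%) and again 0 (beside 0.245% of all) and 1 (0.351%, beside 0.654%) in the other direction. The regions of the full lists were kept, so a region left without any peak still counted in the totals. Peaks of all kinds were made equal in number, but intronic peaks were not. The repeat therefore does not level the libraries within introns, and nothing particular to long regions is read from it either.

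The longest region found in all editing-deficient and no Mavs-/- libraries lay in Adgb, the gene of androglobin. Its 995 nt at chr10:10365205-10366199 were covered by 832, 926 and 638 nt in editing-deficient replicates 1, 2 and 3, and RNase-only peaks covered at most 140 nt. Rnf217, which encodes a RING finger protein, followed with 570, 828 and 798 of 891 nt. The scaffold gene Magi3 had 523, 520 and 645 of 715 nt. Kng2, a kininogen gene, had 390, 349 and 682 of 682 nt. A peak absent from a list means only that no stretch passed the caller there. In Magi3, for example, Mavs-/- RNase-only peaks covered 112, 203 and 371 nt of the region although no Mavs-/- MDA5-protected peak did. A further 8 regions, named after their values were seen, lay in Cyp2c29, Zfhx4, Ptpn4, Thrb, Gphn, Man1a, Trim30d and Scaper.

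The single region with fewer covered bases in every editing-deficient library was 1 of 6 in Ghr, the growth hormone receptor gene. Its 1597 nt in intron 1 of 10 were covered by 0, 452 and 413 nt in the editing-deficient and 1037, 1444 and 739 nt in the Mavs-/- libraries. Of the other 5 Ghr regions, that of 971 nt was covered in all 6 libraries (278, 718 and 626 nt against 637, 732 and 306 nt), and that of 609 nt in 4 libraries. The groups overlapped in both. The remaining 3, of 735, 644 and 531 nt, were covered in Mavs-/- MDA5-protected replicates 1 and 2 (735 and 616, 644 and 493, and 531 and 419 nt). Mavs-/- replicate 3 and every editing-deficient MDA5-protected library covered 0 nt of them. RNase-only peaks covered 0, 535 and 590 nt of the 1597 nt region in the editing-deficient libraries. In the Mavs-/- libraries they covered 1123, 892 and 0 nt. In the 644 nt region they covered 0, 263 and 440 nt against 467, 497 and 309 nt. In the 735 nt region they covered 0 nt in each editing-deficient library, against 402, 152 and 0 nt.

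Host genes held unequal numbers of regions. Of 138 host genes, 83 held 1 region and 55 held 2 or more, and these 55 genes held 202 of the 285 regions. The regions lay in 175 distinct introns, of which 54 held at least 2, and 1 intron held 9. Dpyd led with 16 regions in 7 introns, followed by Slc22a27 with 12 in 3 introns, Sntg1 with 9 in 4 introns, and Thrb and Ube2e2 with 8 each in 3 introns. Slc22a27 encodes a member of the organic anion transporter family, Sntg1 a syntrophin and Thrb the thyroid hormone receptor beta. Dpyd, Sntg1, Thrb and Ube2e2 are long genes (870796, 938404, 377830 and 320693 nt), whereas Slc22a27 measures 101640 nt.

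In Dpyd, 8 of 16 regions were covered in all 6 MDA5-protected libraries. Summed over its regions, 4151, 9620 and 11379 nt were covered in editing-deficient replicates 1, 2 and 3, and 8620, 7979 and 4463 nt in the Mavs-/- replicates, so the groups overlapped. Of the regions, 8 lay in intron 12 of 22 (54834 nt), and the 765 nt region among them was covered in all 6 MDA5-protected libraries (239, 676 and 765 nt against 538, 528 and 396 nt) and in 0 RNase-only libraries. In the neighbouring region of 1833 nt, RNase-only peaks covered 306, 991 and 826 nt against 722, 668 and 524 nt. Regions of the same intron thus differed in whether RNase-only peaks were called over them.

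Slc22a27 differed between replicates of 1 genotype. Its 12 regions were covered by 5232 and 7695 nt in editing-deficient replicates 1 and 2 but 2369 nt in replicate 3, and by 7603, 7876 and 3501 nt in the Mavs-/- replicates. Editing-deficient replicate 3 had 0 long peaks there, although with replicate 2 it had the most long intronic peaks of its genotype. Of the 12 regions, 9 lay in intron 1 of 10 (39150 nt). The gene has close relatives next to it (Slc22a29 also hosted a peak), and how reads matching several places were assigned is not given in the sources used here, so the assignment to Slc22a27 is uncertain.

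**Figure D3:**
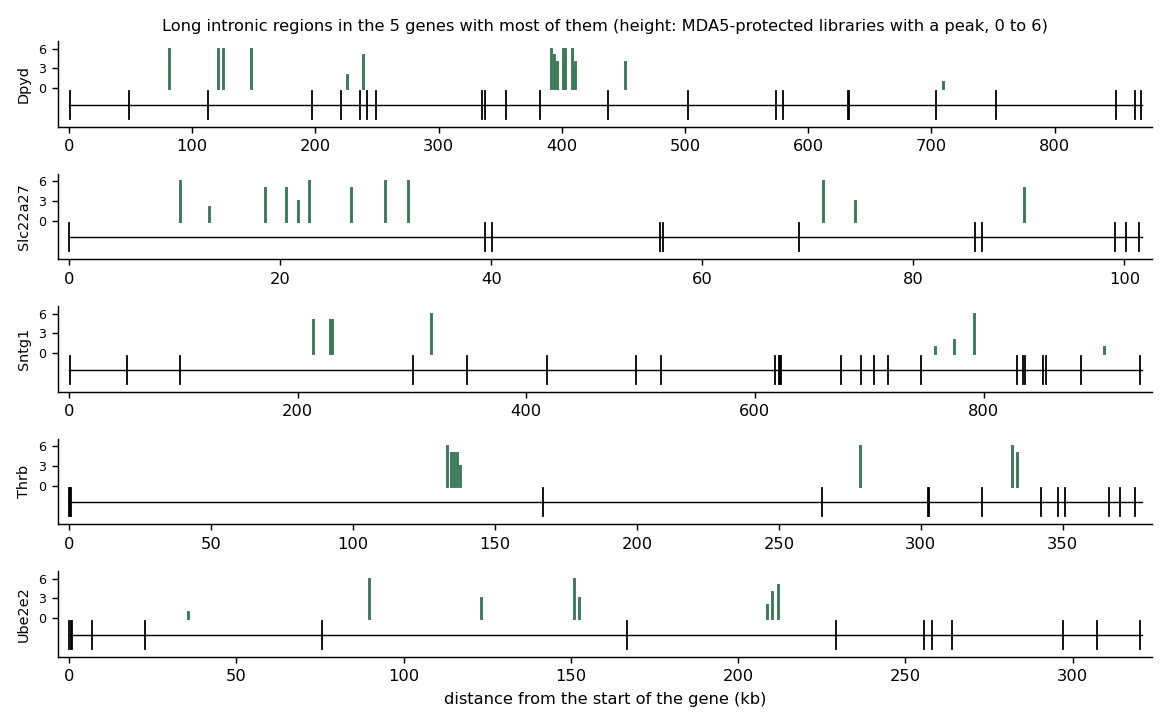
Long intronic regions in the 5 host genes with most of them, drawn at their distance in kb from the 5′ end of the gene; vertical black lines are exons and the height of each green bar is the number of MDA5-protected libraries (0 to 6) with a peak. Regions are grouped within some introns, such as intron 12 of Dpyd and intron 1 of Slc22a27, and other introns of the same genes hold none.

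Sntg1 and Ube2e2 rested more on Mavs-/- replicate 1, which covered 5507 and 6166 nt of their regions against at most 4399 and 4001 nt in any other library. Thrb had 4277, 6323 and 4835 nt in the editing-deficient and 4236, 2773 and 1851 nt in the Mavs-/- libraries. These do not overlap, but the nearest values, 4277 and 4236 nt, lie close. The long peaks that chose its regions numbered 3, 7 and 5 against 1, 1 and 0, so the sums are not independent of the rule. Sums of other host genes, such as Abcb11 and Sntb1, did not overlap either, and their share among the 138 was not counted. The Thrb sum was looked at after the counts of regions were known and was not tested.

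Host genes were long and their transcripts were only partly seen in the input. Their median length was 143912 nt, against 79225 nt for the 931 genes with only shorter intronic peaks and 17403 nt for all 21951 protein-coding genes. Of the 138 host genes 56 (40.6%) had an exonic peak in at least 1 input library, beside 48.2% of the genes with only shorter peaks and 19.7% of all. An exonic peak in all 6 input libraries was found for 11 host genes (7.97%). The same held for 12.5% of the genes with only shorter peaks and 4.57% of all. Sdc2 and Ube2e2 had such a peak in all 6. F8, Slc22a27, Sntg1, Thrb and Zeb1 had none in any input library, which says only that no exon passed the peak caller.

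Gene lists of the liver and its cell types, of very long genes and of proteins that bind double-stranded RNA were compared with the 0.629% of all protein-coding genes that were hosts. Among hepatocyte genes 1 of 37 (2.70%) was a host, Ghr. Among metabolic enzymes and transporters it was 3 of 66 (4.55%), Dpyd, Abcb11 and Sult2a8. Abcb11 encodes the bile salt export pump, and its region of 1343 nt in intron 25 of 28 was covered by 1094, 972 and 1124 nt in the editing-deficient libraries and 910, 0 and 325 nt in the Mavs-/- libraries. RNase-only peaks covered up to 1266 nt of the same region. Sult2a8, a sulfotransferase gene, had 1 region of 652 nt, covered in Mavs-/- replicate 1 only.

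Macrophage genes held 2 hosts of 14 (14.3%): Adgre1, which encodes F4/80, and Vsig4, a complement receptor of liver macrophages. The Vsig4 region of 618 nt was covered by 122, 602 and 618 nt in the editing-deficient libraries and 232, 0 and 0 nt in the Mavs-/- libraries, with 0 nt in every RNase-only library. Both Adgre1 regions measured 591 nt and were covered in editing-deficient replicates 1 and 3 and in Mavs-/- replicate 1. Whether more macrophages or more of their pre-mRNA lay behind such values cannot be told apart in whole liver. No gene of the endothelial (0 of 18), stellate and fibroblast (0 of 13), cholangiocyte (0 of 7) and erythroid (0 of 18) lists was a host.

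Of the very long neuronal and adhesion genes 4 of 42 (9.52%) were hosts, among them Fhit, Immp2l and Sgcz, and the hosts held 11 regions. As a list these are the longest of those compared, and 3 of 42 had an exonic input peak. A Sgcz region of 918 nt was covered by 392, 350 and 436 nt in the editing-deficient and 913, 909 and 422 nt in the Mavs-/- libraries, where the groups overlapped. Among sensors, binding proteins and editing enzymes of double-stranded RNA 1 of 23 (4.35%) was a host, Stau2, which encodes a Staufen protein that binds double-stranded RNA. Its regions of 630 and 526 nt were covered in 2 and 4 libraries. Intronic MDA5-protected peaks of any length were also more frequent in the lists with hosts than in all protein-coding genes (4.87%). They were found in 16.2% of hepatocyte, 42.4% of metabolic, 14.3% of macrophage, 38.1% of very long and 8.7% of double-stranded RNA genes. No list is therefore read as particular to long peaks. The lists differ in gene length, and their shares were not tested.

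Long regions lay in long introns. The median host intron measured 35961 nt, with quartiles at 14667 and 73487 nt, and the median region took up 2.08% of its intron and lay 7467 nt from the nearest exon. Introns of all protein-coding genes had a median of 1297 nt. Introns under 5 kb hold 22.6% of all intronic bases but held 12 of 285 long regions (4.21%), while introns of 50 to 100 kb hold 13.5% of the bases and held 76 regions (26.7%). Per Mb of intron this was 0.0544 against 0.576 regions, and introns of 100 kb or more held fewer again, 0.213 per Mb. Of the 281 regions in an intron of an annotated protein-coding transcript 71 (25.3%) were in the first. The shares of shorter regions and of intronic bases in first introns were not taken, so no preference is read from this. Along the intron, 96 regions had their middle in the 5′ part, 125 in the central part and 64 in the 3′ part, when the intron was divided into 3 equal parts.

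**Figure D4:**
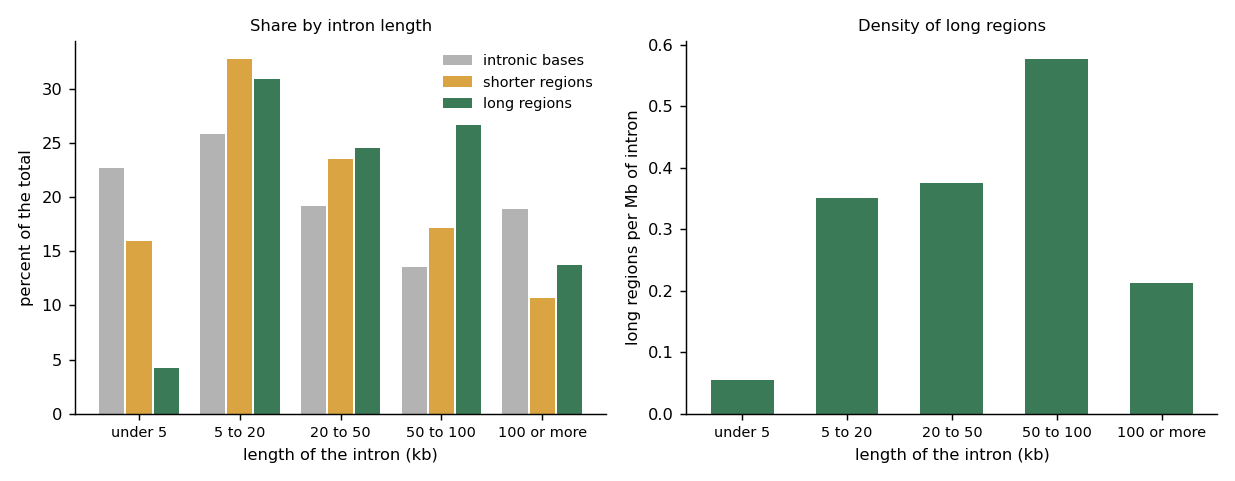
Left, percentage of all intronic bases (grey), of merged regions under 500 nt (yellow) and of long regions (green) in introns of each length class; right, long regions per Mb of intron in the same classes. Introns of 50 to 100 kb hold 26.7% of the long regions and 13.5% of the intronic bases.

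Within libraries, the median host intron of long peaks was 40082, 24312 and 29074 nt in editing-deficient replicates 1, 2 and 3 and 40019, 35924 and 22085 nt in the Mavs-/- replicates, against 25427, 23018, 21081, 27437, 26391 and 21967 nt for shorter peaks in the same order. It was longer for long peaks in 6 of 6 libraries, by a factor of 1.29, or 0.11 ± 0.08 on the log10 scale (mean and SD of 6 differences). An intron must exceed the peak it holds, so the rule itself removes short introns from the long peaks, and no test of this difference is used. When only introns of at least 5000 nt were compared, the difference was -0.01 on the log10 scale, so it was not seen among introns of at least that length.

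Neighbouring regions often lay close together. With gaps of up to 2000 nt, a distance chosen after the positions were seen, 115 of 285 regions (40.4%) formed 43 chains of 2 to 5 regions in 36 genes. The chains spanned 1161 to 6761 nt (median 3025 nt), and peaks of the 6 MDA5-protected libraries together covered a median of 88.8% of the span. With gaps of up to 1000 and 5000 nt, 93 and 134 regions lay in chains. Chains were not counted for shorter intronic regions, so this closeness is not read as particular to long ones.

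The longest chain was in F8, with 4 regions over 6761 nt, of which 57.5%, 79.7% and 79.8% were covered in the editing-deficient and 68.7%, 52.8% and 64.7% in the Mavs-/- libraries. Rtl4, a gene derived from a retrotransposon, had 4 regions over 6659 nt, with 23.4%, 26.0% and 15.5% against 62.7%, 42.3% and 15.0%. A chain of 3 regions in Dpyd spanned 5563 nt, and a chain of 3 in Erap1, which encodes an aminopeptidase of the endoplasmic reticulum that trims peptides for antigen presentation, spanned 5241 nt. The Erap1 chain was covered by 0%, 73.7% and 53.2% in the editing-deficient and 42.7%, 7.65% and 38.4% in the Mavs-/- libraries, so values within each genotype lay far apart. Thrb held the chain with most regions, 5 over 5105 nt.

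**Figure D5:**
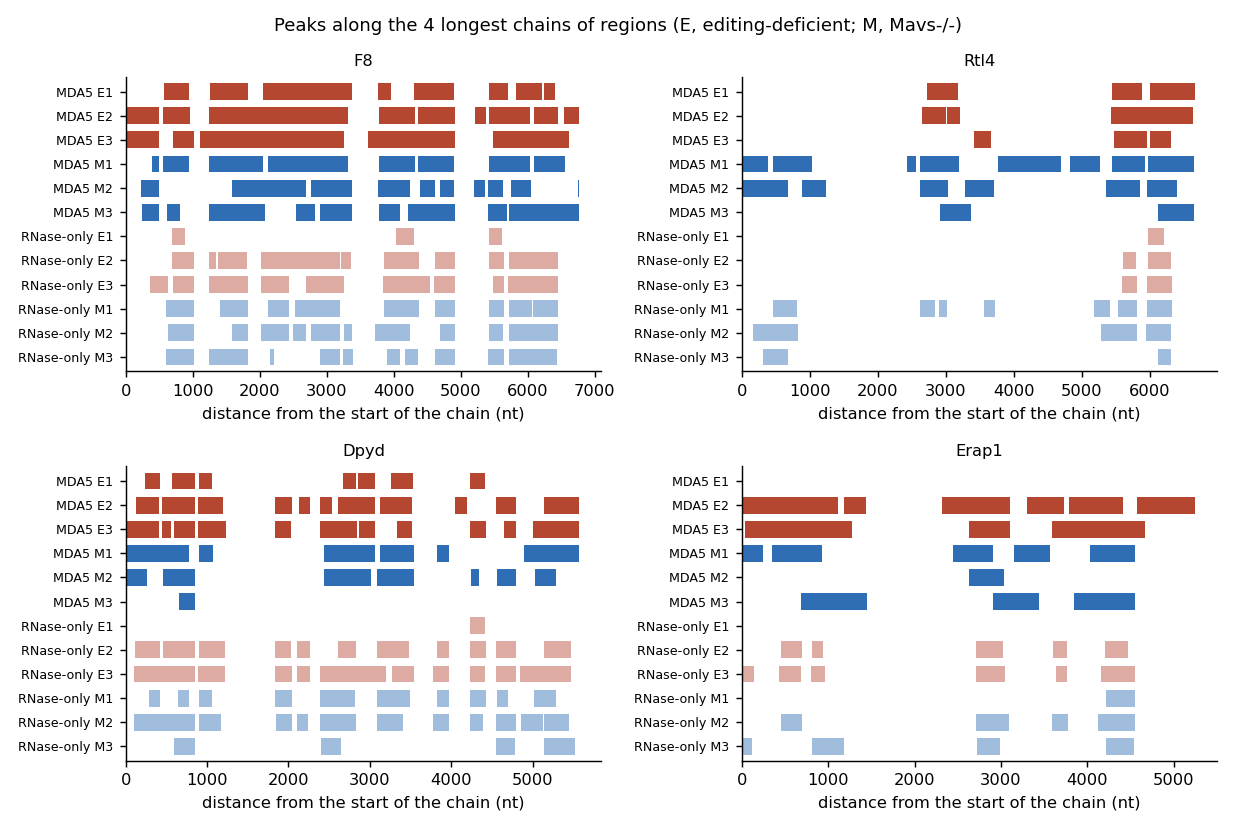
MDA5-protected (dark) and RNase-only (pale) peaks along the 4 longest chains of long intronic regions, each drawn from its 5′ end in nt, with 1 row for each library (E, editing-deficient; M, Mavs-/-). In F8 all 6 MDA5-protected libraries have peaks along the 6761 nt, and in Erap1 editing-deficient replicate 1 has none.

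Some regions rested on 1 library. In Cyp2j5, a cytochrome P450 gene, 5 of 6 regions were covered in Mavs-/- replicate 1 alone and the sixth in Mavs-/- replicates 1 and 2, so its chain of 4 regions over 4468 nt was 74.5% covered in 1 MDA5-protected library and 0% in the other 5. RNase-only peaks covered 37.8%, 25.8% and 4.61% of that span in Mavs-/- replicates 1, 2 and 3 and 0% in the editing-deficient libraries. No editing-deficient MDA5-protected library covered a base of the 6 Cyp2j5 regions (0 nt in each), and neither did Mavs-/- replicate 3.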

How the data were processed

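Narrow peak lists of 18 libraries were used as deposited. Per the labels and the study's methods, reads were trimmed (Trim Galore 0.6.6) and mapped to GRCm38 by the authors, who called peaks on each strand with Genrich 0.6.1 and the input of the same genotype as control. The deposited score is the area under the significance curve, of which the smallest was 500 (the authors' minimum), and the deposited −log10 P-values were not used beyond the authors' own calling. The area grows with depth, so a deeper library yields more and wider peaks. Depth is not held in the lists.

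Samples were grouped by genotype and fraction from their labels. Peaks of at least 500 nt in introns were selected by GENCODE M21 (the same build; the study used another release), merged by strand and assigned to the gene with the shortest enclosing intron. Starts are counted from 1. The members, gene lists and comparisons were chosen with earlier results of these data known. Regions were named by a rule: the 10 longest covered in all 6 MDA5-protected libraries, the 5 longest, the 5 longest covered in all libraries of 1 genotype and none of the other, all in the 5 genes with most regions, and list genes. Some of the regions under this rule are not reported here.

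Differences between libraries were tested by exact two-sided permutation of group labels (3 against 3), of fractions within genotypes, or of the signs of 6 within-library differences. Libraries share regions, so the 6 differences are not fully independent. The 7 p-values, that of host intron length (not used in the text) included, were adjusted by Benjamini-Hochberg. Scripts (Python 3.11.15, numpy 2.4.6, matplotlib 3.10.9) were tested on simulated data. Alternatives covered other lengths, areas, exon rules, merging, equal peak numbers, removal of RNase-only peaks, the replicate block and each library left out. Base composition, repeats and inverted copies were not analysed here, and no sequence is shown.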

Additional observations from a re-analysis of the deposited data

How the results depend on the processing

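The lists do not hold read depth, and 3 libraries against 3 cannot give a p under 0.10. The study reports approximate read numbers for its libraries, which were not used here. The number of merged regions was 285, and 503, 171 and 30 with limits of 400, 600 and 1000 nt, 122 without peaks over replicated RNase-only peaks, and 230 to 283 with a library left out. The difference in the number of long peaks was 4.17 to 55.7 with a library left out. Their share was -5.21 to -1.90 points with a library left out and 1.87 with equal numbers of peaks. The excess over RNase-only was 4.51 to 6.25 points over the 12 left-out libraries and 0.515 (1000 nt) to 16.8 points (minimum area of 1000) over the 8 other settings, past the unadjusted threshold in each. Recurrence within against between genotypes ranged from -0.32 (without editing-deficient replicate 1) to 6.87 points. It was 17.6 without peaks over RNase-only peaks of the same genotype (exact permutation p = 0.10), a removal that itself differs between genotypes. RNase-only coverage was 3.64 to 8.19 points with a library left out, 6.73 at 400 nt and 25.9 as a share of peaks that overlap (exact permutation p = 0.031 in both, and a longer peak overlaps more readily), and -3.28 with a minimum area of 1000. Input coverage was -1.66 to -0.82 points with a library left out. With 5 libraries a sign permutation cannot pass 0.05, so the loss of the unadjusted call follows from the number. Host intron length (log10) was 0.0927 to 0.132 with a library left out, -0.0743 at 1000 nt, -0.00955 in introns of at least 5000 nt, 0.104 with exons of either strand, 0.122 by the middle base and 0.0621 with a minimum area of 1000. These differences are descriptions, since the rule bears on intron length.

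The labels do not say that equal replicate numbers share an animal. With the replicate block the differences were 25.3 peaks (exact permutation p = 0.75), -3.44 points (exact permutation p = 0.50) and 5.29 points (exact permutation p = 0.031), and no call changed. By shared intronic bases, 5 of 6 MDA5-protected libraries resembled the RNase-only library of their own number most, and 2 of 6 the library of that number in the other genotype. Gaps within chains and region counts at equal numbers of peaks were alternatives chosen after seeing the data. Results on base composition, repeats, sequence families and inverted copies were not run, because no genome was used here.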

Other observations

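Regions with a peak in every MDA5-protected library and in no RNase-only library were few. Of the 53 regions covered in all 6 MDA5-protected libraries, 3 had no base in any RNase-only peak, and they were picked out after their values were seen. They lay in Dpyd (765 nt), Slc22a27 (597 nt) and Stag1 (536 nt), the last a gene of the cohesin complex. The Slc22a27 region was covered by 386, 537 and 327 nt in editing-deficient replicates 1, 2 and 3 and by 581, 597 and 343 nt in the Mavs-/- replicates. In Stag1 the values were 266, 536 and 212 nt against 277, 210 and 240 nt. The groups overlapped in all 3 regions.

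Per Mb of intron, long regions were most frequent on chromosome 19 (0.891, 23 regions, 12 of them in Slc22a27) and least frequent among the autosomes on chromosome 11 (0.0383, 2 regions). Paired signal from both strands was rare: the 1 region with an opposite-strand MDA5-protected peak lay in Sntg1 (659 nt) and was covered on its own strand in all 6 libraries.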
